A study of Mus musculus with 124 samples.

Results

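The genes of potassium channels were followed in the cerebral cortex of mice over an undisturbed day, through 6 h of enforced wakefulness and over the recovery from it. Every gene of the cortex table whose symbol begins with Kcn, continues with letters and then has a digit was taken, which gave 82 of 17108 named genes. By the channel family their symbols belong to, 37 encode pore subunits of voltage gated channels and 9 encode auxiliary subunits of such channels. Another 13 are inward rectifiers and 10 are two-pore channels. A further 10 belong to the families of channels gated by calcium or sodium, among them Kcnu1, placed by family and not by gating. The last 3 are non-coding transcripts named after a channel gene. The rule reads symbols and no measured value, but it was set with earlier results of these data known. Kcne2 was looked for and is not in the table.

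Each library was the cortex of 1 mouse, and the mice were 11 to 12 weeks old, with free access to food and 12 h of light and 12 h of darkness. The sources used here do not give the strain. In 36 mice sleep deprivation (SD) by gentle handling began at light onset, zeitgeber time (ZT) 0, of the second day, which is hour 24 of the experiment (T24), and went on until T30 or until the mouse was killed. They were killed in groups of 3 at T27 after 3 h and at T30 after 6 h of deprivation, and later at T36, T42 and T48, on the next day at T54, T60 and T66, then at T72 and T78, and a week later at T192 and T198. The other 26 mice, the controls, were left to sleep and were killed at ZT0 (n = 8, of which 4 at T0 and 4 at T24), ZT3 (n = 3), ZT6 (n = 5), ZT12 (n = 5) or ZT18 (n = 5). Each SD group was set against the controls of its own time of day. The SD groups of T60, T66, T192 and T198 were labelled batch 2 and the other SD groups batch 1, while the controls were of both batches except at ZT3, where all were of batch 1.

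Potassium channels let potassium leave or enter a cell and so set its resting potential and the shape and timing of its action potentials. Voltage gated pores open on depolarisation and are assembled from families that include silent subunits (the Kcnf, Kcng, Kcns and Kcnv families), which make no channel alone and alter the channels of other subunits. Inward rectifiers and two-pore channels are open near rest, and some inward rectifiers are opened by G proteins or closed by ATP. Channels opened by calcium couple spiking to the calcium that enters with it. Potassium currents are long known to matter for sleep: flies that lack the Shaker channel, a relative of the mammalian Kcna genes, sleep less.

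The table holds log2 CPM, CPM being read counts scaled to the size of the library. No filter on low values was used, so all 82 genes were tested. All differences below are log2 fold changes ± standard error from limma, SD minus control, and a gene is said to rise or fall where its p, adjusted over all 17108 genes, was under 0.05. Libraries summed to between 979177 and 1020372 CPM, and the number of reads behind a value is unknown. Cortical markers were present in every library, with Slc17a7 between 9.99 and 10.28 and Tbr1 between 7.17 and 7.65 log2 CPM. Choroid plexus RNA varied: 4 of its 8 markers were measured, and their summed CPM was between 3.63 and 21.4 in all libraries but the ZT3 control T3N2, which had 126. Immediate early genes, which neuronal activity induces, rose in 13 of 15 cases at T27, 15 of 15 at T30 and 6 of 15 at T36. Of all genes 15.7% rose and 16.8% fell at T30. Microglial markers went both ways at that time (of 7, 1 rose and 3 fell), and 2 of 8 oligodendrocyte markers fell. Their part in the results below was not tested, and in whole tissue fewer cells of a type and less RNA per cell cannot be told apart.

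Upstream sequences are shown for 5 genes of the results below. Kcnip3 and Kcnip4 encode close relatives that changed in opposite directions at T30 and T36. At both T27 and T30 Kcnf1 rose and Kcnj3 fell. Kcnj2 had different effects at T30 and T36, though neither passed alone. Each is the 250 bases before an annotated transcript start, from RefSeq on build GRCm38.p6, read 5′ to 3′ on the strand of the gene. Capitals mark a match on either strand to the AP-1 site TGANTCA, which Fos and Jun proteins bind, to the E-box CACGTG, which the clock activators bind, or to the cyclic AMP response element TGACGTCA. Which start is in use in these libraries was not measured. Kcnip3 and Kcnip4 have other annotated starts, and for Kcnip4 the GENCODE start farthest upstream had no window. The other windows found for both genes, not shown, held no match. Nor did the windows of Kcnk1 and Kcnj12, which are also not shown.
Kcnip3, chr2:127522095-127522344, minus strand: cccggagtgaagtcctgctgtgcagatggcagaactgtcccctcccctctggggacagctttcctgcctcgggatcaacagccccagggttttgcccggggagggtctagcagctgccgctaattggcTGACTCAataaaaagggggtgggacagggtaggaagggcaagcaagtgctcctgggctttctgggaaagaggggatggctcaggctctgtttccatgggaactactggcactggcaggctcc
Kcnip4, chr5:49285660-49285909, minus strand: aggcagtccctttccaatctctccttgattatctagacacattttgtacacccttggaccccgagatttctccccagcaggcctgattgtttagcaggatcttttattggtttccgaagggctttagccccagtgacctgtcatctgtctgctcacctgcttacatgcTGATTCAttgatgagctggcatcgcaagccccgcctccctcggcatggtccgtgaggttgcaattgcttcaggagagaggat
Kcnf1, chr12:17176889-17177138, minus strand: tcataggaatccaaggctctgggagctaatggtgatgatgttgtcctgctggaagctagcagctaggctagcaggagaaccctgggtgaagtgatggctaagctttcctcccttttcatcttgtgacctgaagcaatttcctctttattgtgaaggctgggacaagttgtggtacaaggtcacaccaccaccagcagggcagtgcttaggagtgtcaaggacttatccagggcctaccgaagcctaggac
Kcnj3, chr2:55435720-55435969, plus strand: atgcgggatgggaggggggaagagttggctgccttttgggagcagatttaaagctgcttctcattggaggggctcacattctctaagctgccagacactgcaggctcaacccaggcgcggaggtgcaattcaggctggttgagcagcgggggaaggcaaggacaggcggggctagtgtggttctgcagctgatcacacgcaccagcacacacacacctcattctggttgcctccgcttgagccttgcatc
Kcnj2, chr11:111065914-111066163, plus strand: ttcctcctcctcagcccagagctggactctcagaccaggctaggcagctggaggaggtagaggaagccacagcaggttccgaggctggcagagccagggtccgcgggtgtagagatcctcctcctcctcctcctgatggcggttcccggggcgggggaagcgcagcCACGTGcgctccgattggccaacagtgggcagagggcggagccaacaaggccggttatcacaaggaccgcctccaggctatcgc

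The AP-1 letters begin 122 bases before the start in Kcnip3 and 82 before it in Kcnip4, and the E-box begins 84 bases before the start in Kcnj2. Such windows were found for 59 of the 82 genes, 82 windows in all. The AP-1 site was in 3.66% of the 82 windows (those of Kcnip3, Kcnip4 and Kcnk2), against 6.75% of the 32851 windows of all genes. The E-box was in 6.1% of them (Kcnab1, Kcne4, Kcnh4 and Kcnj2), against 6.02% of all windows, and the cyclic AMP response element was in 0, against 1.55%. A match describes these letters only.

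The levels of the family spanned a wide range. Per kilobase of exon, averaged over the controls, the highest was Kcnab2, a cytoplasmic subunit of Kcna channels, at 6.17 log2 CPM per kb. Kcnj9, a subunit of G protein gated channels, had 5.57, Kcna2, an axonal voltage gated pore, 5.54, Kcnj10, the main inward rectifier of astrocytes, 5.52, and Kcnj3, another G protein gated subunit, 5.51. The lowest were Kcnj5 at −3.75, Kcnh8 at −3.66 and Kcnq1 at −3.32. By family the median on this scale was 4.41 for auxiliary subunits, 3.16 for voltage gated pores, 2.53 for inward rectifiers, 2.09 for two-pore channels and 1.79 for channels gated by calcium or sodium. Exons of 27 members overlap those of a gene on the other strand in the GENCODE annotation. The sources used here do not say whether the cortex counting used strand, so these values are uncertain, above all those of Kcnj13 (49.1% of its exon bases), Kcna6 (39.6%), Kcnmb4 (31.5%) and Kcnj3 (31.1%).

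The controls gave the course over an undisturbed day. Of the 82 genes, 37 (45.1%) changed over the 5 times of day by limma's F test, near the 41.9% of all genes. The mean peaked at ZT18, in the dark, in 15 of the 37 and at ZT12 in 10, against 5 at ZT6, 4 at ZT3 and 3 at ZT0. The share highest at ZT18 was 40.5%, beside 29.1% among all genes that changed, a difference that was not tested. The largest ranges of fitted means were 1.17 for Kcnj13 and 1.14 for Kcna5, both of low abundance. That of Kcnj13 was 0.89 and did not pass without the ZT3 control T3N2 (limma F adjusted p = 0.156). With batch 1 controls alone the count was 18, and 17 of these are among the 37. The share of all genes that passed in this smaller fit was not taken, so the drop cannot be read as particular to the 82.

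Kcnip2, an auxiliary subunit of the Kcnd pores that carry A-type current (a fast, brief potassium current), had its trough at ZT12. Its median was 6.95 log2 CPM at ZT0 (lowest 6.85, highest 7.07, n = 8). At ZT3 it was 6.82, 7.08 and 6.93, at ZT6 6.60, 6.86, 6.80, 6.87 and 6.76, at ZT12 6.53, 6.61, 6.55, 6.48 and 6.47, and at ZT18 7.06, 7.12, 6.93, 7.02 and 7.04. The ZT12 libraries lay below every ZT0, ZT3 and ZT18 library, and the range of means was 0.50 (limma F adjusted p = 4.97e-10). Kcnip4, a relative that alters the same pores, had its highest mean at ZT12, where Kcnip2 was lowest, and its own lowest at ZT0 (6.51 ± 0.05, n = 5, and 6.05 ± 0.08, n = 8, mean ± SD, limma F adjusted p = 2.5e-11). The courses did not mirror each other: at ZT18, where Kcnip2 had its highest mean, Kcnip4 was at 6.33. Kcns2, a silent subunit, was high in the light phase, at 5.54 ± 0.11 at ZT3 and 5.55 ± 0.12 at ZT6, and low at ZT0 (5.11 ± 0.14), ZT12 (5.13 ± 0.12) and ZT18 (5.02 ± 0.14; limma F adjusted p = 1.94e-08). Its means at ZT3 and ZT6, and those at ZT0 and ZT12, lay within 1 SD of each other.

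Kcng1, another silent subunit, had its higher means at ZT0 (4.42) and ZT18 (4.42), and its lowest at ZT6 (3.93; range 0.50, limma F adjusted p = 2.6e-05). Kcna5, a voltage gated pore, reached 0.99 ± 0.35 at ZT12, against −0.15 ± 0.38 at ZT18 (limma F adjusted p = 1e-05). Kcnh4, a pore of the ether-a-go-go family, was also highest at ZT12 (5.28 ± 0.13) and lowest at ZT0 (4.77 ± 0.15; limma F adjusted p = 5.03e-07). Kcng2, a silent subunit, and Kcne4, a small membrane subunit, had ranges of 0.51 and 0.64 with the same high and low times, but neither passed in batch 1 alone (limma F adjusted p = 0.0677 for Kcng2 and 0.142 for Kcne4). Kcnq1 (range 0.80, highest at ZT6) passed at a limma F adjusted p of 0.0307. It had 0.0981 in batch 1 alone, 0.0794 without T6N4, 0.168 without J76N2, 0.0506 without T12N1 and 0.061 without T18N3. Kcnj2, an inward rectifier, was highest at ZT18 and lowest at ZT0 (range 0.57, limma F adjusted p = 0.0239), with 0.079 without T18N7, 0.0546 without T18N8 and 0.0513 without T0N8.

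**Figure D1:**
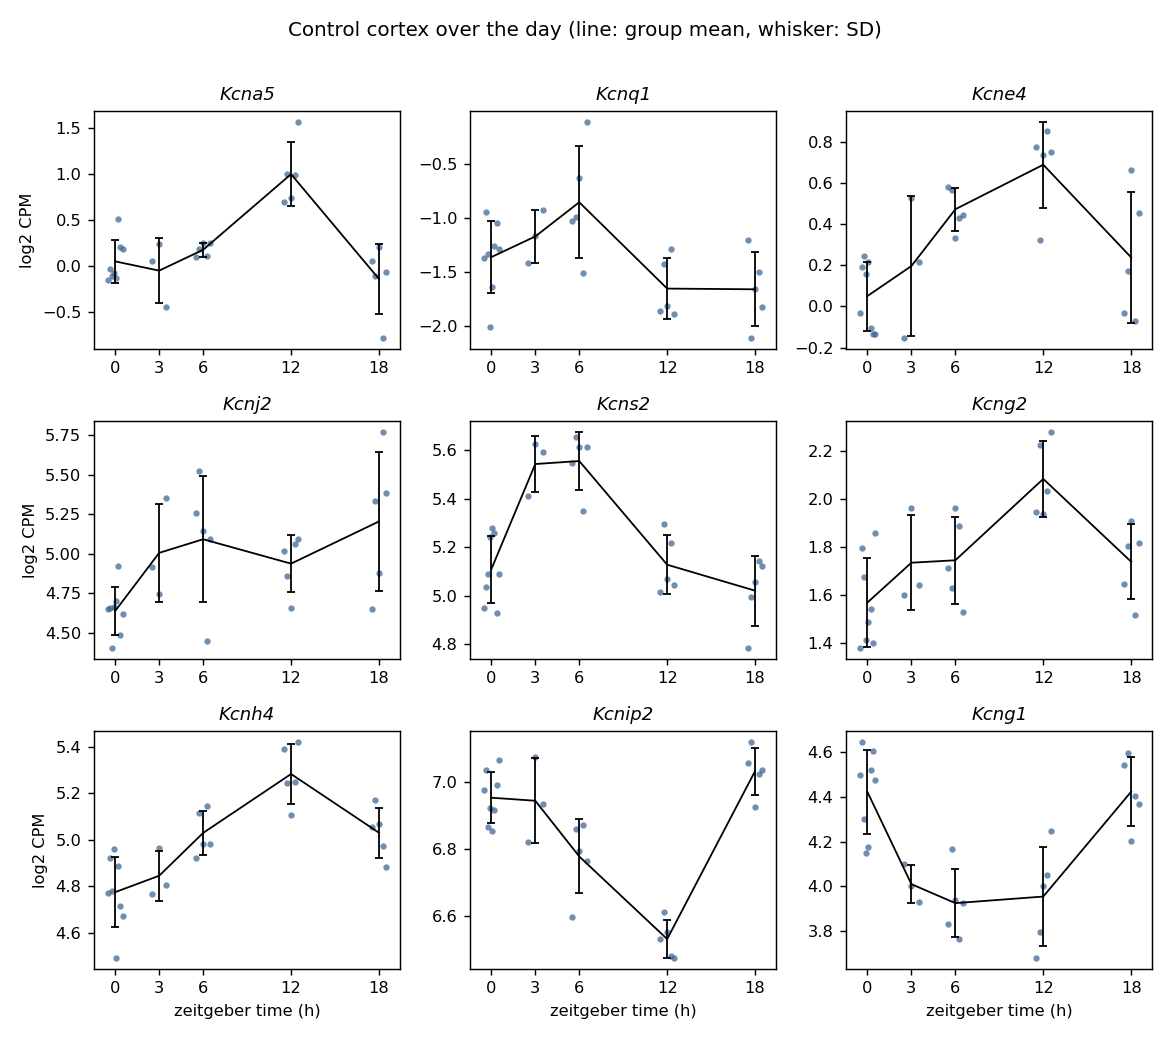
Level in log2 CPM (vertical axis) of 9 potassium channel genes in control cortex against zeitgeber time in hours (horizontal axis), with a point for each library, the group mean as a line and the SD as whiskers (n = 8 at ZT0, 3 at ZT3, 5 at the other times). Kcnip2 has its lowest mean at ZT12, where Kcna5, Kcne4, Kcng2 and Kcnh4 have their highest, and Kcns2 is high at ZT3 and ZT6.

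After 3 h of deprivation (T27), 13 genes passed: 8 rose (9.76% of the 82) and 5 fell (6.1%). Of all genes 8.59% rose and 7.84% fell, 16.4% in either direction beside 15.9% of the 82, so the count says nothing particular to potassium channels. In all 13 the 3 SD libraries lay on one side of the 3 controls, as in 96% of all genes called at T27. Called or not, the libraries did not overlap in 31.7% of the 82 genes and 34.4% of all genes. By family, 2 voltage gated pores rose and 2 fell, 1 auxiliary subunit rose, 1 inward rectifier rose and 3 fell, 3 two-pore channels rose and 1 calcium activated channel rose. The median over the 82 was −0.01, as it was over all genes.

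The silent subunit Kcnf1 (chromosome 12, 17172100 to 17176888, on build GRCm38 like all positions) had 7.36, 7.41 and 7.40 log2 CPM in SD cortex at T27, against 6.92, 6.91 and 6.83 in ZT3 controls. Every SD library was higher than every control, a rise of 0.50 ± 0.07 or 1.42-fold (limma adjusted p = 2.94e-07), with no overlap. Kcng1 (chromosome 2, 168260117 to 168281736) had 4.80, 4.44 and 4.52 in SD cortex and 4.10, 4.00 and 3.93 in controls, a rise of 0.58 ± 0.15 (limma adjusted p = 0.00417). Kcns2 (chromosome 15, 34837355 to 34843407) went the other way, with 5.02, 5.24 and 4.95 in SD cortex and 5.41, 5.63 and 5.59 in controls. All its SD libraries were below the controls, by 0.47 ± 0.10 (limma adjusted p = 0.000424). Kcna4, a voltage gated pore that inactivates fast, fell by 0.28 (limma adjusted p = 0.00614), and Kcnip3 rose by 0.27 ± 0.07 (limma adjusted p = 0.00423).

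Of the inward rectifiers, Kcnj3 (chromosome 2, 55435970 to 55598145), a pore subunit opened by G proteins, had 7.36, 7.68 and 7.50 log2 CPM in SD cortex, against 7.82, 7.95 and 7.82 in controls. It fell by 0.35 ± 0.08 on the log2 scale (limma adjusted p = 0.00133), and no SD library reached a control. Kcnj11, the pore of ATP-sensitive channels, fell by 0.27 (limma adjusted p = 0.00245), and Kcnj12, a strong inward rectifier, rose by 0.28 (limma adjusted p = 0.0237, but 0.0857 without T3N2, 0.0748 without T3N3 and 0.142 without T27S5). Among the two-pore channels, Kcnk3, an acid-sensitive leak channel, rose by 0.29 ± 0.06 (limma adjusted p = 0.000836) and Kcnk1 by 0.20 ± 0.05 (limma adjusted p = 0.00125). Kcnk13, which is known in microglia, rose by 0.54 ± 0.16 (limma adjusted p = 0.0151, and between 0.0619 and 0.0813 without T3N2, T3N3, T27S2 or T27S3). No microglial marker of 7 passed at T27. Kcnn2, a small-conductance calcium activated channel, rose by 0.21 (limma adjusted p = 0.0294), with 0.0842 without T3N3, 0.0857 without T3N4, 0.0654 without T27S3 and 0.107 without T27S5.

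Kcnj13, an inward rectifier of epithelia that include the choroid plexus, had the largest fitted change at T27, −1.27 ± 0.32 (limma adjusted p = 0.00314). Its values were −0.28, −0.43 and −0.52 log2 CPM in SD cortex and 1.41, 0.65 and 0.53 in ZT3 controls. The SD values lay within the range of the controls of other times (−0.89 to 0.45), and the ZT3 controls above it. The summed choroid plexus markers were between 6.46 and 8.45 CPM in the SD libraries and were 126, 21.4 and 10.0 CPM in these controls. Of the 4 measured markers, Ttr and Clic6 fell (by 3.35 and 2.10), and Kl (−0.71) and Prlr (−0.16) did not pass. Without T3N2 the fall of Kcnj13 was smaller and still passed (limma adjusted p = 0.0489), and its change over the control day no longer passed (limma F adjusted p = 0.156, against 0.012 with all libraries). The part of choroid plexus tissue in these values was not tested.

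**Figure D2:**
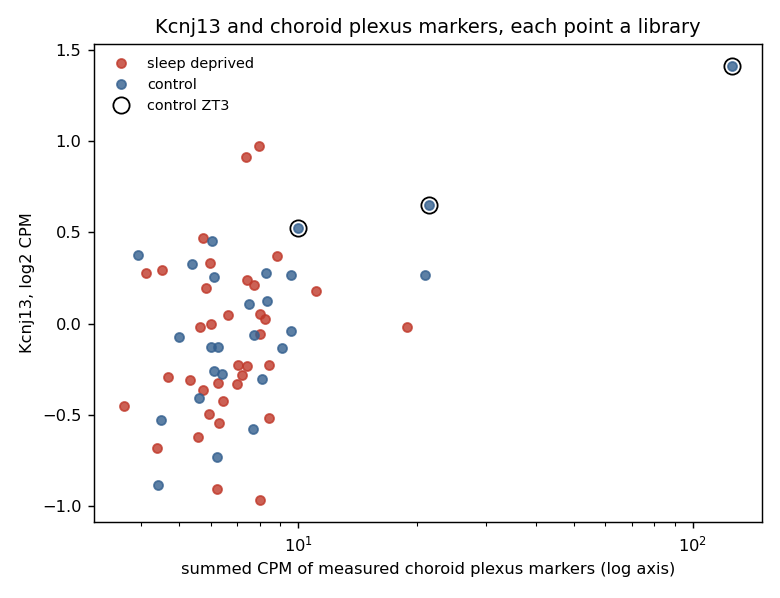
Level of Kcnj13 in log2 CPM (vertical axis) against the summed CPM of the 4 measured choroid plexus markers (horizontal axis, log scale), with a point for each of 62 libraries: SD in red, control in blue, and the 3 ZT3 controls ringed. The ringed library at 126 CPM, T3N2, stands apart from the others and has the highest Kcnj13 value, 1.41.

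At the end of 6 h of deprivation (T30), 23 of the 82 genes passed: 15 rose (18.3%) and 8 fell (9.76%). Among all genes 15.7% rose and 16.8% fell, 32.4% in all beside 28% of the 82. The count is not above that background. In 17 of the 23 no SD library overlapped the controls, while Kcnd3, Kcnh1, Kcnip2, Kcnj6, Kcnk12 and Kcnk13 overlapped. This is 73.9% of them, against 82.5% of all genes called at T30, and called or not the libraries did not overlap in 28% of the 82 genes and 33.3% of all genes. With only the ZT6 and T30 groups in the fit the split was 13 higher and 12 lower. Among voltage gated pores 6 rose and 4 fell, among auxiliary subunits 2 rose and 1 fell, among inward rectifiers 2 rose and 2 fell, among two-pore channels 4 of 10 rose and 0 fell, and among calcium or sodium activated channels 1 rose and 1 fell. Of the 13 genes called at T27, 11 (84.6%) were called at T30 in the same direction, which is 47.8% of the T30 genes. Among all genes 78.9% of those called at T27 were called at T30 in the same direction, 40% of all T30 calls. The exceptions were Kcna4 and Kcnj13.

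Kcng1 had 4.72, 4.73 and 4.53 log2 CPM in SD cortex at T30, against 3.83, 4.17, 3.94, 3.77 and 3.93 in ZT6 controls. The SD libraries were all higher, by 0.73 ± 0.14 or 1.66-fold (limma adjusted p = 3.16e-05). Kcnf1 had 7.32, 7.40 and 7.34 in SD cortex and 6.89, 7.13, 6.83, 6.92 and 6.93 in controls, a rise of 0.41 ± 0.06 without overlap (limma adjusted p = 4.98e-07). Kcnq5, a slowly activating voltage gated pore, fell by 0.19 (limma adjusted p = 0.0093, but 0.0555 without T30S1). Kcns2 stayed low, at 5.01, 5.23 and 5.10 in SD cortex against 5.55, 5.65, 5.61, 5.35 and 5.61 in controls. All SD libraries were below all controls, by 0.44 ± 0.09 (limma adjusted p = 0.000133).

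The A-type pores and their subunits moved in both directions. Kcnd1 fell by 0.22 and Kcnd2 by 0.20 (limma adjusted p = 0.00291 and 0.00542), and Kcnd3 rose by 0.23 (limma adjusted p = 0.00924, against 0.0944 with batch 1 controls alone). Kcnip3 (chromosome 2, 127456498 to 127522094), which is both a subunit of these pores and, as DREAM, a calcium-sensing transcriptional repressor, had 7.18, 7.25 and 7.18 log2 CPM in SD cortex and 6.75, 6.98, 6.72, 6.76 and 6.80 in controls. It was higher in every SD library, by 0.40 ± 0.06 or 1.32-fold (limma adjusted p = 2.41e-06). Kcnip4 (chromosome 5, 48389502 to 49524907) had 6.00, 5.98 and 5.89 in SD cortex and 6.40, 6.37, 6.42, 6.27 and 6.41 in controls. It was lower in every SD library, by 0.42 ± 0.06 (limma adjusted p = 3.76e-07). Kcnip2 rose by 0.19 (limma adjusted p = 0.0194), a call lost without T6N2 (0.111) or T30S4, where the value was 0.09 (0.371). Kcnh1, an ether-a-go-go pore, rose by 0.15 (limma adjusted p = 0.0396) and lost its call without T6N2, T6N3, J76N2, T30S3 or T30S4 (0.0591 to 0.279).

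Kcnj12 (chromosome 11, 61022564 to 61071131) had 3.90, 3.95 and 3.89 log2 CPM in SD cortex, against 3.18, 3.63, 3.33, 3.17 and 3.22 in ZT6 controls. No SD library overlapped the controls, which included a higher one at 3.63, and the rise was 0.61 ± 0.08 or 1.52-fold (limma adjusted p = 1.11e-07). Kcnj3 had 7.58, 7.60 and 7.59 in SD cortex and 8.10, 7.85, 8.12, 8.04 and 8.07 in controls, a fall of 0.45 ± 0.07 with every SD library lower (limma adjusted p = 4.25e-06). Kcnj6, which forms channels with Kcnj3, rose by 0.34 ± 0.12 with an overlap (limma adjusted p = 0.0236), with 0.0626 with batch 1 controls alone, 0.066 without T6N2, 0.118 without T30S3 and 0.149 without T30S4. The 2 partners had opposite signs. Kcnj11 fell by 0.17 (limma adjusted p = 0.0211), with 0.095 without T30S1 and 0.0575 with batch 1 controls alone.

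The 4 two-pore genes that rose at T30 were Kcnk1, Kcnk3, Kcnk12 and Kcnk13. Kcnk1 (chromosome 8, 125995170 to 126030685), a channel of weak leak current, had 6.63, 6.64 and 6.65 log2 CPM in SD cortex and 6.32, 6.43, 6.30, 6.34 and 6.28 in controls. It was higher in every SD library, by 0.31 ± 0.04 (limma adjusted p = 9.79e-08). Kcnk13 had 2.20, 2.58 and 2.46 in SD cortex and 2.03, 2.22, 1.67, 1.71 and 1.62 in controls, and rose by 0.56 ± 0.15 with an overlap (limma adjusted p = 0.00241). The microglial markers beside it ranged from −0.39 (P2ry12) to 0.34 (Tmem119). Their summed CPM was 289 to 304 in SD cortex, against 316 to 325 in controls. Kcnk12, a relative of Kcnk13, rose by 0.51 ± 0.13 (limma adjusted p = 0.00248, but 0.0511 with only the compared groups in the fit) with an overlap, and Kcnk3 by 0.20 (limma adjusted p = 0.00552, but 0.0646 without T30S3). Kcnn2 rose by 0.26 ± 0.06 (limma adjusted p = 0.00102), and Kcnt2, a sodium activated channel, fell by 0.28 ± 0.07 (limma adjusted p = 0.00228).

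**Figure D3:**
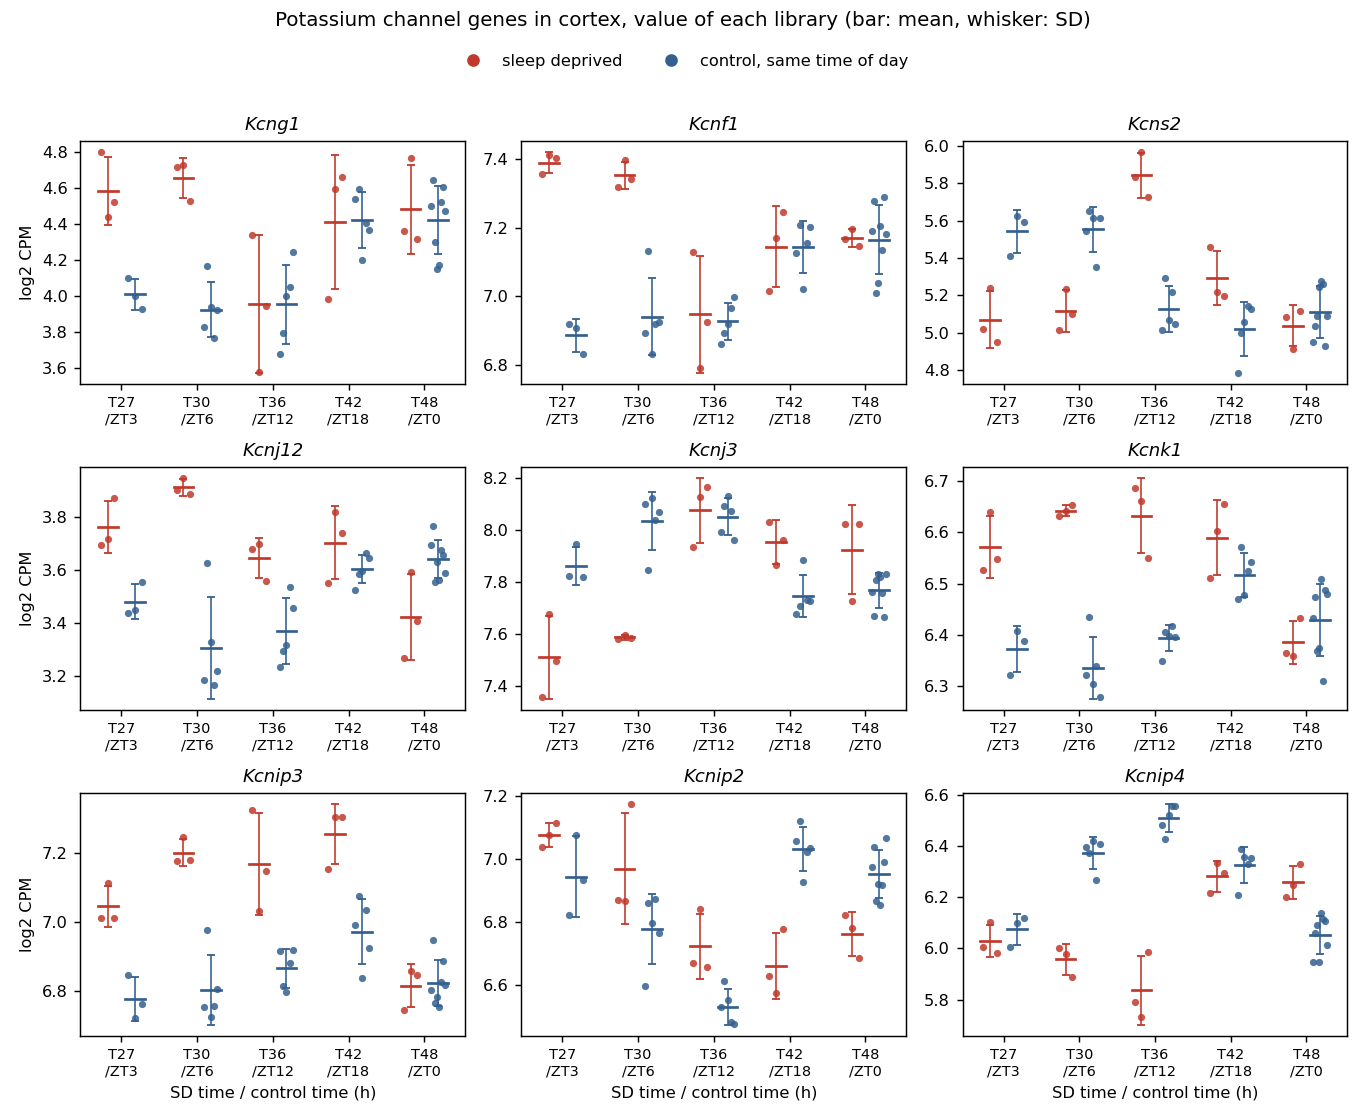
Level in log2 CPM (vertical axis) of 9 potassium channel genes at T27, T30, T36, T42 and T48, with SD libraries in red (left of each pair, n = 3) and controls of the same time of day in blue (right, n = 3 at ZT3, 5 at ZT6, ZT12 and ZT18, 8 at ZT0), group means as bars and SDs as whiskers. Kcng1 and Kcnf1 are raised at T27 and T30 and level with controls at T36, Kcns2 is low and then high, and Kcnip4 is farthest below its controls at T36.

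At T36, after 6 h of recovery, 12 genes passed against the ZT12 controls: 10 rose (12.2%) and 2 fell (2.44%). Among all genes 6.9% rose and 5.58% fell, 12.5% in all, against 14.6% of the 82. The SD and control libraries did not overlap in any of the 12, nor in 87.2% of all genes called at T36. Called or not, they did not overlap in 22% of the 82 genes and 20.3% of all genes. The count was 7 without T12N1, 7 without T36S1 and 7 without T36S2. Among voltage gated pores 6 of 37 rose and 0 fell, among auxiliary subunits 2 rose and 1 fell, 1 inward rectifier rose, 1 two-pore channel rose and 1 fell, and no calcium or sodium activated channel passed (limma). Of the 23 genes of T30, 8 (34.8%) were called at T36, 66.7% of the T36 genes. Among all genes 22.5% of the T30 calls were called at T36, 58.5% of all T36 calls. In 7 of the 8 potassium channel genes the direction was the same, and in Kcns2 it was opposite. Among all genes called at both times the direction was the same in 1115 of 1249.

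Kcns2 had 5.83, 5.97 and 5.73 log2 CPM in SD cortex at T36, against 5.01, 5.30, 5.07, 5.22 and 5.04 in ZT12 controls. Its SD libraries were above every control library of any time of day (highest 5.65). It was higher by 0.71 ± 0.09 or 1.64-fold (limma adjusted p = 8.07e-08), after being lower at T27 and T30. Kcnip4 had 5.79, 5.73 and 5.99 in SD cortex and 6.49, 6.43, 6.52, 6.56 and 6.56 in controls. All its SD libraries were lower, by 0.67 ± 0.06 or 1.60-fold (limma adjusted p = 4.54e-12), the smallest p of the family at T36. Kcnip3 stayed higher, at 7.33, 7.03 and 7.15 in SD cortex and 6.91, 6.81, 6.80, 6.88 and 6.92 in controls (0.30 ± 0.06, limma adjusted p = 0.00063). Kcnk1 had 6.69, 6.66 and 6.55 in SD cortex and 6.35, 6.41, 6.40, 6.42 and 6.40 in controls, again without overlap (0.24 ± 0.04, limma adjusted p = 4.08e-05).

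The remaining rises at T36 that are named were smaller or rested on single libraries. Kcnh1 rose by 0.22 (limma adjusted p = 0.00803, and 0.053 without T36S1) and Kcns1, a silent subunit, by 0.29 (limma adjusted p = 0.0115, and 0.235 with a value of 0.17 without T36S2). Kcnj12 rose by 0.28 (limma adjusted p = 0.019) and had between 0.0524 and 0.0923 without T12N1, T12N2, T36S1 or T36S2. Kcnv1, also silent alone, rose by 0.21 (limma adjusted p = 0.029) and had between 0.0532 and 0.158 without T12N1, T12N2, T12N4, T36S1 or T36S2. Kcna4 rose by 0.20 (limma adjusted p = 0.0379), and had 0.0518 to 0.209 without T12N1, T12N6 or any of the SD libraries T36S1, T36S2 and T36S4. Kcnip2 rose by 0.19 (limma adjusted p = 0.0432) and had 0.0592 to 0.274 without T12N1, T12N4, T12N5, T12N6, T36S1 or T36S2, and 0.166 with batch 1 controls alone. Kcnk9, an acid-sensitive leak channel like Kcnk3, fell by 0.27 (limma adjusted p = 0.0273, and 0.0715 without T12N1), and without T36S1 its value was −0.15 (limma adjusted p = 0.362).

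**Figure D4:**
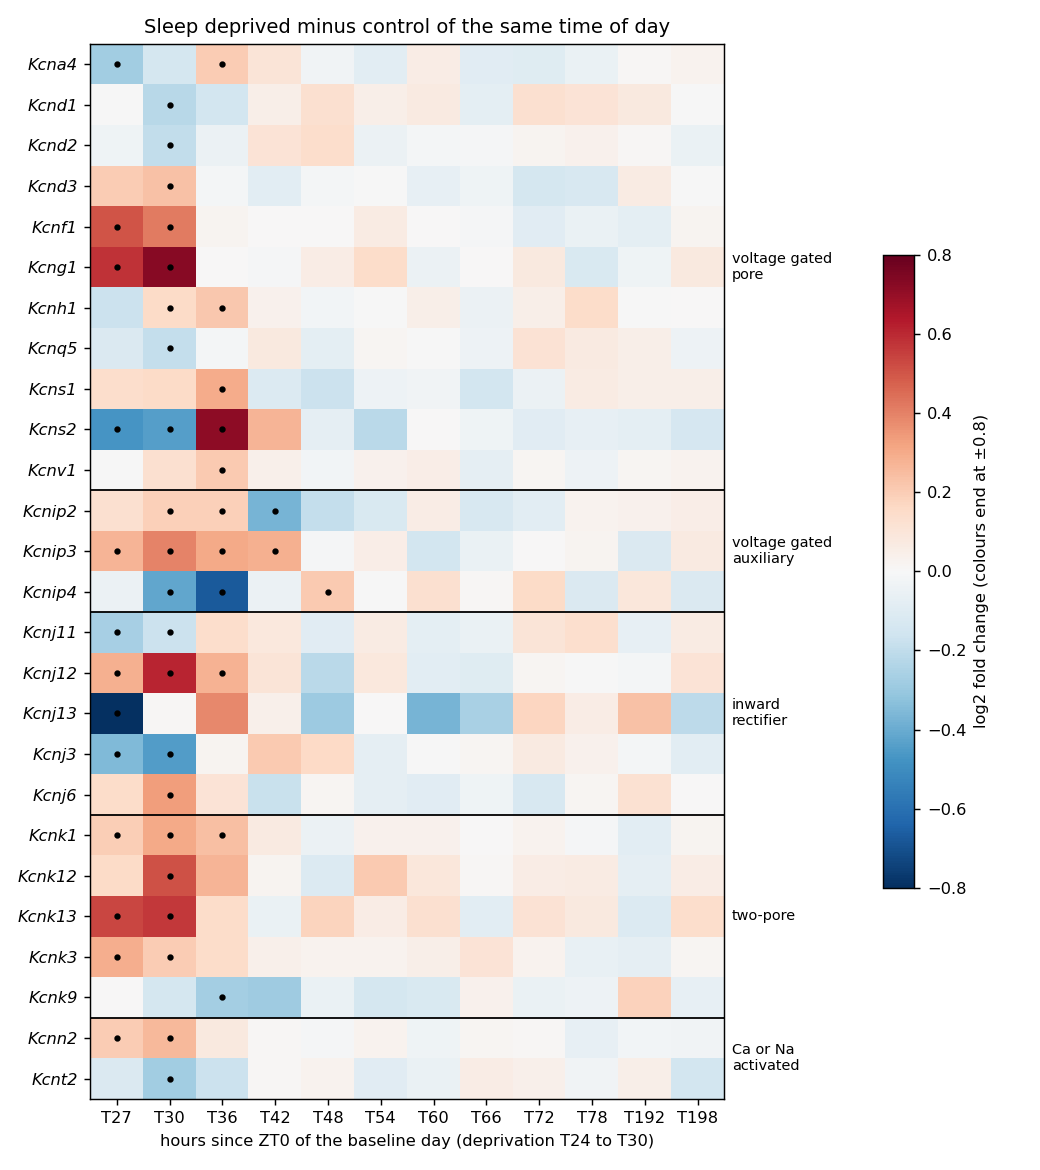
Log2 fold change, SD minus control of the same time of day (colour, red for higher in SD and blue for lower), of 26 of the 28 potassium channel genes that passed at any time (vertical, by family) at the 12 SD times (horizontal, in hours of the experiment). Dots mark a limma adjusted p under 0.05, 13 of them at T27, 21 at T30 and 11 at T36.

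The effect at T36 was then tested against the effect at T30, which rests on other SD mice and other controls. This difference passed for 10 of the 82 genes (12.2%), 6 with a higher effect at T36 and 4 with a lower one, the same share as the 12.2% of all genes. With batch 1 controls alone 5 passed, 4 higher and 1 lower. Kcns2 had the largest difference, 1.15 ± 0.12 (limma adjusted p = 2.97e-09). The next was Kcnj2 (0.99 ± 0.29, limma adjusted p = 0.0148, and 0.0642 without T36S2), although neither of its effects passed alone. Kcnj2 had 5.48, 5.75 and 5.28 log2 CPM in SD cortex at T36 and 5.02, 4.86, 4.66, 5.06 and 5.09 in ZT12 controls, and 4.72, 4.64 and 4.63 in SD cortex at T30 and 5.26, 5.52, 5.14, 4.45 and 5.09 in ZT6 controls. At T36 its SD libraries were all above the controls, and at T30 they overlapped.

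Kcnj3 had a difference of 0.47 ± 0.10 (limma adjusted p = 0.000893): it was low at T30 and at T36 had 7.93, 8.12 and 8.17 log2 CPM in SD cortex and 7.99, 8.09, 8.13, 8.07 and 7.96 in controls, values that overlapped. Kcna4 (0.35), Kcnj4 (0.34), a strong inward rectifier, and Kcnj11 (0.31) had smaller differences in the same direction (limma adjusted p = 0.00903, 0.00992 and 0.00627), and with batch 1 controls alone Kcna4 (0.0514) and Kcnj4 (0.0644) did not pass. Kcnf1 had a difference of −0.39 ± 0.08 (limma adjusted p = 0.000801) and a T36 effect of 0.02. Kcng1 had −0.73 ± 0.19 (limma adjusted p = 0.00553, but 0.0607 without T36S2 and 0.0979 with batch 1 controls alone). Kcnip4 had −0.26 (limma adjusted p = 0.0298), with 0.0529 to 0.137 without single libraries of 7 (J76N1, T30S1, T30S3, T12N5, T12N6, T36S1, T36S2) and 0.205 with batch 1 controls alone. Kcnj12 had −0.33 (limma adjusted p = 0.0454) and lost the call without any of 12 of the 16 libraries (0.0532 to 0.139). With batch 1 controls alone its difference was −0.17 (limma adjusted p = 0.457).

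**Figure D5:**
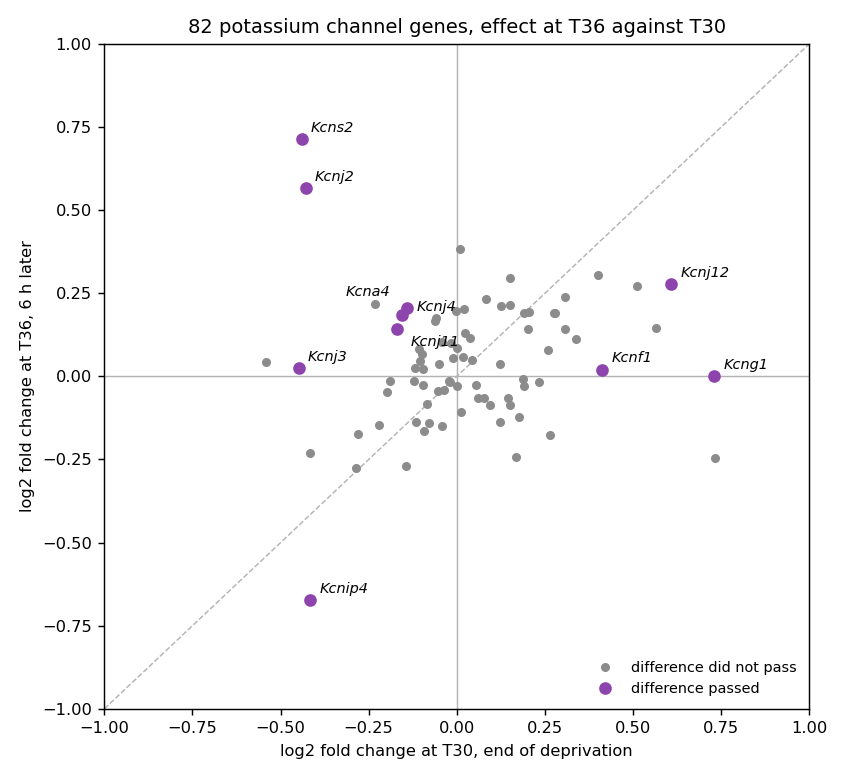
Log2 fold change at T36 (vertical axis) against that at T30 (horizontal axis), SD minus control, for the 82 potassium channel genes. The dashed line marks equal effects, and the 10 genes whose difference passed limma at an adjusted p under 0.05 are named: Kcns2 and Kcnj2 lie farthest above the line and Kcng1 lies far below it.

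Between T27 and T30 no difference of effects passed for any of the 82 genes in limma, and it passed for 0.00585% of all genes. An unadjusted limma p under 0.05 was found for 8 of the 82 and for 1272 of all 17108 genes. At T42, after 12 h of recovery, 2 genes (2.44%) passed, against 1.03% of all genes. Kcnip3 had 7.16, 7.31 and 7.31 log2 CPM in SD cortex and 6.99, 7.08, 6.84, 7.03 and 6.92 in ZT18 controls, all SD libraries higher (0.28 ± 0.06, limma adjusted p = 0.0127, but 0.055 without T18N4, 0.0691 without T42S4 and 0.112 without T42S6). Kcnip2, which at T36 had been higher, had 6.63, 6.57 and 6.78 in SD cortex and 7.06, 7.12, 6.93, 7.02 and 7.04 in controls. It was lower in every SD library, by 0.37 ± 0.07 (limma adjusted p = 0.001). At T48, 1 gene (1.22%) passed, against 1.49% of all genes: Kcnip4, at 6.20, 6.25 and 6.33 in SD cortex and a median of 6.08 (lowest 5.95, highest 6.14) in 8 ZT0 controls. This rise of 0.21 ± 0.06 (limma adjusted p = 0.0441) was lost without any of 8 of the 11 libraries (T0N1, T0N2, J70N1, T0N5, J70N2, T48S1, T48S3, T48S4; 0.0549 to 0.245) and with batch 1 controls alone (0.117).

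From T54 on, 0 of the 82 genes passed in limma at T54, T60, T66, T72, T78, T192 or T198, and 0% of all genes did. An unadjusted p under 0.05 was found for 4 of the 82 at T54, 4 at T60, 4 at T66, 11 at T72, 5 at T78, 3 at T192 and 3 at T198. Among all 17108 genes it was found for 1750 (10.2%) at T54, 1198 (7%) at T60, 1627 (9.51%) at T66 and 1067 (6.24%) at T72. The later counts were 902 (5.27%) at T78, 1081 (6.32%) at T192 and 1489 (8.7%) at T198. Without the library T54S4, 2 genes passed at T54. The smallest adjusted p among the 82 at these times was 0.32, at T54. Kcns2 was at −0.22 at T54 (limma adjusted p = 0.42).

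In all, 28 of the 82 genes (34.1%) passed at 1 or more of the 12 times, against 41.6% of all genes, and 54 passed at none. Several of the more abundant channels were among these 54. Kcnc1, a pore of fast-spiking neurons, had 0.02 at T30 (95% interval −0.07 to 0.10). Kcnt1, a sodium activated channel, had −0.02 (−0.12 to 0.07), Kcnq3, a voltage gated pore, 0.06 (−0.10 to 0.23), and Kcnma1, the large-conductance calcium activated channel, −0.08 (−0.22 to 0.07). The glial inward rectifiers Kcnj10 and Kcnj16 had −0.02 (−0.14 to 0.11) and 0.00 (−0.16 to 0.17). Kcna1 and Kcna2, pores of axons, had 0.05 (−0.13 to 0.24) and 0.01 (−0.17 to 0.19). Further values at T30 were −0.11 for Kcnab1, −0.16 for Kcnj4 (which passed without T6N4, limma adjusted p = 0.0273), −0.00 for Kcnj8, −0.10 for Kcnk2, 0.09 for Kcnn1 and 0.17 for Kcnn3, none past the threshold with all libraries.

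Other genes of membrane excitability were read beside these. Of 25 measured genes of proteins that bind or anchor potassium channels, 5 rose and 3 fell at T30, and 4 rose and 1 fell at T36. Dpp10, a subunit of the Kcnd pores like Dpp6, fell at T30 by 0.27 and at T36 by 0.29 (limma adjusted p = 9.94e-05 and 0.000124). Abcc8, the sulfonylurea receptor that joins Kcnj11, fell at T30 by 0.26 (limma adjusted p = 0.00304), where Kcnj11 was also lower. Akap5, an anchoring protein, rose at T30 by 0.29 (limma adjusted p = 9.41e-05) and Amigo3 by 0.88 (limma adjusted p = 0.0024). Among calcium channel genes 7 of 24 rose and 2 fell at T30, with Cacna1c at 0.38 and Cacna2d1 at −0.28. Among sodium channel genes 0 of 12 rose and 3 fell, Scn1a (−0.30), Scn2a (−0.17) and Scn9a (−0.72), and none of the 4 HCN genes passed (limma). Beside these counts, 15.7% of all genes rose at T30 and 16.8% fell, and at T36 6.9% rose and 5.58% fell.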

How the data were processed

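RNA was sequenced from the cortex of 62 mice. The deposited table holds log2 CPM, and per the submitters' processing notes the authors used fastp, STAR 2.7.0e, edgeR and build GRCm38 (mm10), with no order or settings given. The protocol in the labels describes liver for every sample, and how the cortex libraries were made is not stated. Read counts and depth are unknown, so counting error cannot be separated, and it weighs most on low values. The fitted batch coefficient was 0 for every cortex gene, so the deposited values carry no batch difference within groups. Whether there was one before the values were processed cannot be seen from them. Each SD group was of a single batch, so comparisons with controls of both batches rest on the values as deposited. Libraries of 1 group differed by 0.23 to 0.376 log2 units (root mean square over genes, 97 pairs).

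The 77 entries without a gene name (at most 0.0797% of the signal) were left out, which leaves 17108 genes. Log2 values were tested as deposited with limma 3.58.1 in R 4.3.3 (eBayes with a mean trend), all 62 libraries in 1 fit of 17 groups with batch as a covariate (44 residual degrees of freedom), so groups of 3 share an estimate of the spread. Tests were two-sided, with Benjamini-Hochberg adjustment over all genes within a comparison and a threshold of 0.05. The script was tested on simulated data. The labels do not say more of the mice than their codes, and p-values measure the spread between these animals.

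Named genes were up to 10 in each direction at T27, T30 and T36, up to 5 at other times and for differences between effects, the 10 largest control ranges and 24 genes always reported. The other members that passed (Kcnd3, Kcnh1 and Kcnk3 at T30 and Kcnj11 for the difference) were added after their values were seen. A few genes are not reported here by name, though they are in the counts. The members and lists were chosen with earlier results of these data known. Exon overlaps came from GENCODE on GRCm38. Alternatives were no batch covariate, median centring, log2(CPM + 1), no mean trend, leaving out the lowest 20% of genes, controls of the same batch, only the groups compared, leaving out each library and, added after seeing the data, the number in the animal code as a replicate block.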

Additional observations from a re-analysis of the deposited data

Results flagged for a closer look

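In control groups of 5 or 8 libraries, single libraries stood apart from the rest of their group in 15 of 192 combinations of a named gene and a group, where chance gives about 1 in 20. The values, in log2 CPM with the nearest other library, were those of Kcnd1 at ZT0 in T0N3 (lowest, 3.56, next 3.68), Kcnd1 at ZT6 in T6N3 (lowest, 3.69, next 3.90), Kcnd2 at ZT0 in T0N2 (lowest, 6.73, next 6.87), Kcnd2 at ZT18 in T18N2 (lowest, 6.73, next 6.84), Kcnd3 at ZT12 in T12N6 (highest, 6.57, next 6.34). Further ones were Kcne4 at ZT12 in T12N2 (lowest, 0.32, next 0.74), Kcnj10 at ZT18 in T18N2 (lowest, 7.94, next 7.99), Kcnj3 at ZT18 in T18N4 (highest, 7.88, next 7.73), Kcnj8 at ZT12 in T12N5 (highest, 1.51, next 1.44), Kcnk9 at ZT12 in T12N1 (highest, 7.98, next 7.90). The last were Kcnn2 at ZT0 in T0N9 (highest, 5.52, next 5.43), Kcnn2 at ZT18 in T18N3 (lowest, 5.33, next 5.45), Kcnq5 at ZT6 in T6N4 (highest, 7.63, next 7.54), Kcns1 at ZT6 in T6N3 (highest, 4.80, next 4.48), Kcnt2 at ZT18 in T18N2 (lowest, 5.97, next 6.09). In T18N2 3 genes stood apart, each as the lowest of its group (Kcnd2, Kcnj10 and Kcnt2).

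The effects of deprivation at T36 and at T30 differed for 10 potassium channel genes (limma test of the difference, T36 minus T30). It was 1.15 for Kcns2, 0.99 for Kcnj2, 0.47 for Kcnj3, 0.35 for Kcna4, 0.34 for Kcnj4 and 0.31 for Kcnj11. It was −0.73 for Kcng1, −0.39 for Kcnf1, −0.33 for Kcnj12 and −0.26 for Kcnip4.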

How the results depend on the processing

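No call among the named genes changed its sign under any alternative run. The 71 called values of named genes were recomputed 1358 times in all, and 1239 kept their side of the threshold. Of the 71, 40 kept it under every alternative, among them Kcns2, Kcnip4 and Kcnk1 at T30 and T36 and Kcnf1 at T27 and T30. Dropping the batch covariate left every fitted value as it was, since the batch coefficient was 0, so its calls were nearly fixed in advance. Of the 55 named values that did not pass, 7 did under some alternative. Among these were Kcnj4 at T30 and T36 and Kcna4 and Kcnk9 at T30, each with only the compared groups in the fit (limma adjusted p = 0.0352, 0.0121, 0.0334 and 0.0215). For the count at T48 (1), centring on the median gave 0, log2(CPM + 1) gave 2, no mean trend gave 0 and controls of the same batch gave 0. With controls of the same batch the difference between T36 and T30 (10) had 5 calls and the control day (37) had 18. The causes were not tested, but the same-batch fits hold fewer control libraries. All-gene counts were not taken under the alternatives, so their counts have no background here. Leaving out each library in turn gave 10 to 13 calls at T27, 20 to 25 at T30, 7 to 13 at T36 (7 without T12N1, T36S1 or T36S2), 1 to 3 at T42 (1 without T18N4, T42S4 or T42S6), 0 to 1 at T48, 0 to 2 at T54, 7 to 12 for the difference between T36 and T30 and 29 to 40 over the control day. With only the compared groups in the fit, T27 had 17 calls, T30 25, T36 15 and T42 3, and that alternative was not run for the differences between effects. At T54 and later times no other alternative gave a call. The animal codes end in a number that some SD and control mice share, and nothing in the labels says what it marks. Codes that begin with J70 occur in ZT0 controls and at T192, and codes with J76 in ZT6 controls and at T198. Same-numbered libraries did not deviate from their group means together (correlation over genes −0.21 to 0.15, median −0.01, 37 pairs). With the number as a replicate block, an alternative chosen after seeing the data, the count was 12 at T27, 22 at T30, 11 at T36, 1 at T42, 0 at T48, 8 for the difference between T36 and T30 and 26 over the control day. Depth is unknown, so low genes such as Kcnj13, Kcnq1 and Kcna5 carry an unknown counting error.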

Other observations

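The 3 non-coding transcripts named after channel genes (Kcnd3os, Kcnmb4os2 and Kcnq1ot1) passed at none of the 12 times in limma. Their log2 fold changes, SD minus control, ran from −0.23 to −0.04 at T30 and from 0.10 to 0.22 at T36. The widest fitted changes at T42 and T48 belonged to genes of low abundance and did not pass. Kcng3, a silent voltage gated subunit, had −0.96 at T42 (limma adjusted p = 0.365), and Kcnj5, a G protein gated inward rectifier, had 1.51 at T48 (limma adjusted p = 0.221). At T30 the widest were 0.73 for Kcng3 and −0.54 for Kcnk5, an acid-sensitive two-pore channel (limma adjusted p = 0.216 and 0.222), neither past the threshold.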
